A study of Mus musculus with 12 samples.

Results

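A set of 40 genes that mark lung endothelium was followed across 4 groups of mouse lung. They were chosen by name as genes that vascular or lymphatic endothelial cells are known for, and all 40 had a probe set with their single symbol on the array, among 18161 genes that did. Each gene was read from 1 probe set, the one with the highest mean log2 signal over the 12 arrays, out of 73 probe sets for the 40 genes. Of the 40, 39 passed the filter on low signal and were tested among 24574 probe sets. Prox1, the transcription factor that sets lymphatic identity, was below the array's median signal on every array (0.622 to 12.3) and was not tested. The groups were wild-type Balb/c mice and mice labelled as PPTA knockouts, for which the labels name no strain, each after sham surgery or after puncture of the ligated cecum (cecal ligation and puncture, CLP), which models sepsis from the gut. All mice were 8 to 10 weeks old, the lungs were taken at 8 h, and each group had 3 arrays. The labels do not say how the gene was disrupted or whether each array holds a different animal. The p-values therefore measure only how far these samples spread, which may be technical.

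Endothelial cells line every vessel of the lung. They hold the vessel wall closed through junction proteins such as VE-cadherin and claudin-5, keep their identity through ETS, GATA and KLF transcription factors, and set vessel tone through nitric oxide, endothelin and peptide receptors. Lung capillaries also carry proteins for gas and lipid handling, and bone morphogenetic protein (BMP) signals through endoglin, Alk1 and Bmpr2 keep the resting state.

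The arrays were checked against their labels and against markers of other cells. PPTA (Tac1) encodes the precursor of substance P, and its signal was 2.80 to 16.1 over the 6 wild-type arrays and 337 to 530.3 over the 6 arrays labelled as knockout. This goes against the label, and the files do not say which part of the gene was disrupted, so those groups are called knockout-labelled throughout. The endothelial marker Pecam1, the junctional adhesion molecule CD31, was between 1494 and 2019.9 on all 12 arrays, whose medians were 31.1 to 38.4. Other endothelial genes were dimmer, such as Nos3 at 92.9 to 235. One array, array 3 of knockout-labelled sham, was unlike its group. Its summed signal of 8 alveolar macrophage markers was 8395, against 1961 and 2322 on the other 2, and 7 endothelial genes on it lay more than 1.5 times above (Klf2, Gpihbp1 and Lyve1) or below (Gata2, Klf4, Edn1 and Aplnr) both other arrays. Counts that rest on it are given with and without it.

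Arrays of a group lay closer together in the wild type than in the knockout-labelled groups. The median SD between the 3 arrays, over the endothelial genes on the log2 scale, was 0.10 after sham and 0.074 after CLP in the wild type, and 0.19 after sham and 0.20 after CLP in knockout-labelled lung. Over all probe sets tested it was 0.13, 0.13, 0.23 and 0.23. In the wild type no endothelial gene had an array more than 1.5 times above or below both others. In knockout-labelled CLP there were 8 such cases. Array 1 was high for Clec14a and low for Klf2 and Ramp3, array 2 was low for Gata2, and array 3 was high for Cdh5, Robo4 and Nos3 and low for Acvrl1.

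**Figure D1:**
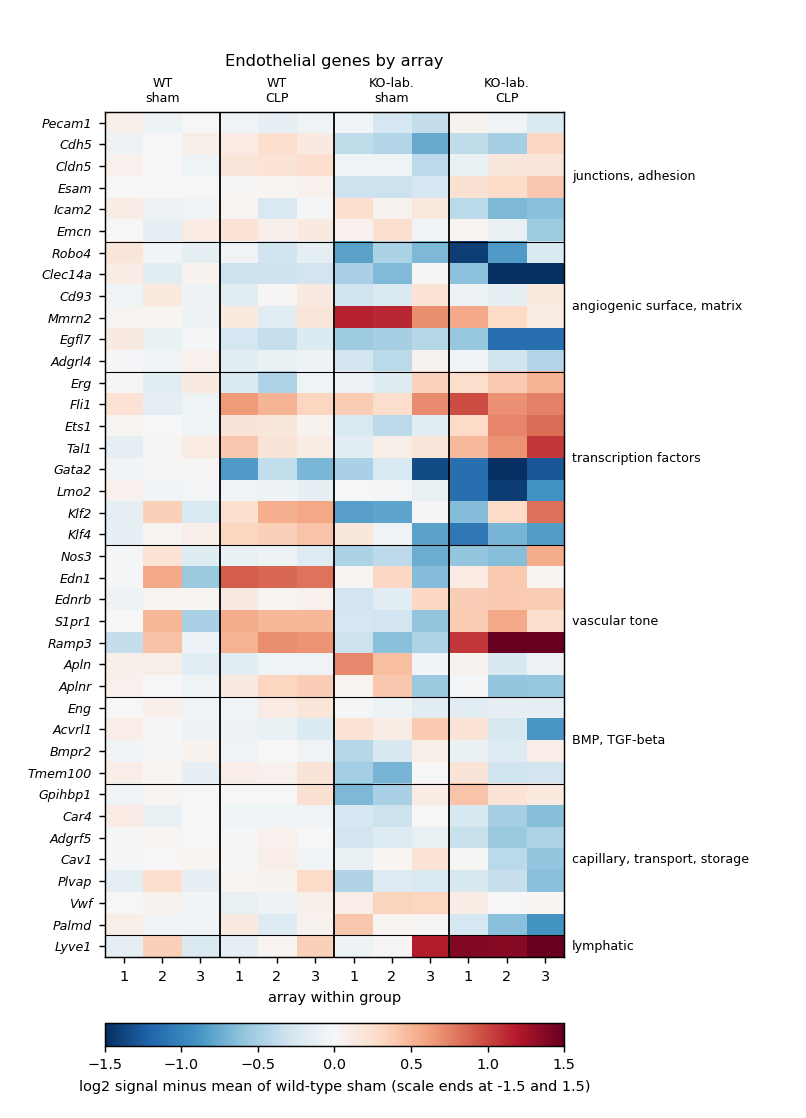
Log2 signal of the 39 tested endothelial genes on each array, as the difference from the mean of wild-type sham. Columns are arrays 1 to 3 of each group (WT, wild type; KO-lab., knockout-labelled), rows are genes grouped by role, and red is higher and blue lower, with colours ending at 1.5 either way. The wild-type columns are pale for most genes, while the knockout-labelled CLP columns show Lyve1 and Ramp3 in red beside Lmo2, Clec14a, Gata2 and Klf4 in blue.

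The first comparison asked how the endothelial genes responded to CLP in wild-type lung. None of the 39 genes was called at an adjusted p under 0.05 by limma, where 0.948% of all 24574 probe sets were called (0.814% higher and 0.134% lower). Their log2 differences, CLP minus sham, had a median of 0.039 and ran from -0.64 for Gata2 to 0.86 for Edn1, and the median over all probe sets tested was -0.048. Of the 39, 5 had an unadjusted p under 0.05, where 8.48% of all probe sets did: Fli1, Gata2, Edn1, S1pr1 and Ramp3. In whole lung, fewer endothelial cells and less RNA per cell cannot be told apart, here or in any later comparison.

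Edn1, the vasoconstrictor endothelin-1, read 518, 776 and 356 after sham and 985, 951 and 922 after CLP, a log2 difference of 0.86 ± 0.26, adjusted p = 0.23. Every CLP array lay above every sham array. Fli1, an ETS transcription factor that helps maintain vessels, read 333, 257 and 272 after sham and 448, 409.6 and 358 after CLP (0.49 ± 0.15, adjusted p = 0.22), again without overlap. Gata2, a zinc finger factor of endothelial and blood cells, lay lower on every CLP array, with 525, 732 and 592 against 922, 965 and 964 (-0.64 ± 0.27, adjusted p = 0.51). In all, 10 genes were higher and 5 lower on every CLP array than on any sham array, where 24.3% of all probe sets did not overlap in one direction or the other. The count of 0 called genes comes from the model in which all 4 groups share an estimate of the spread. It was also 0 in each run with 1 array left out. Other runs gave other counts, and why they differ was not tested. With wild-type arrays alone, 5 genes were called higher (Aplnr, Cldn5, Edn1, Fli1 and Klf4) and 3 lower (Clec14a, Egfl7 and Gata2). With arrays weighted by their spread, 3 (Edn1, Fli1 and Klf4) were called higher and 1 (Gata2) lower. The 0.948% of all probe sets called belongs to the unweighted fit of all 4 groups. For the runs with wild-type arrays alone and with weights no such share is given, so their counts cannot be compared with all probe sets.

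In knockout-labelled lung, 8 of the 39 endothelial genes rose after CLP and 10 fell, 46.2% in all, against 29.2% of all probe sets (10.4% higher and 18.8% lower). Esam, Ets1, Tal1, Ednrb, S1pr1, Ramp3, Gpihbp1 and Lyve1 rose. Icam2, Clec14a, Mmrn2, Egfl7, Gata2, Lmo2, Klf4, Adgrf5, Cav1 and Palmd fell. The median log2 difference of the 39 was -0.049, and that of all probe sets was -0.12. For 8 genes every CLP array lay above every sham array and for 6 every one lay below, where 36.1% of all probe sets did not overlap in one direction or the other. With each array centred on its median, which moved the median of all probe sets to 0.0078, 12 genes were called higher and 5 lower, and the median of the 39 was 0.082. With the 6 knockout-labelled arrays alone, 4 genes were called higher (Esam, Ets1, Ramp3 and S1pr1) and 2 lower (Icam2 and Lmo2). Without array 3 of knockout-labelled sham the counts were 13 higher and 11 lower, and without array 2 of knockout-labelled CLP they were 7 higher and 5 lower. The 29.2% belongs to the fit of all 12 arrays without centring, and no such share is given for these other runs. The ratio of 3′ to 5′ signal of beta-actin, a sign of RNA integrity, was 1.28 to 1.45 on the knockout-labelled CLP arrays and 1.47 to 1.63 on the other 9, and its part in these results was not tested.

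**Figure D2:**
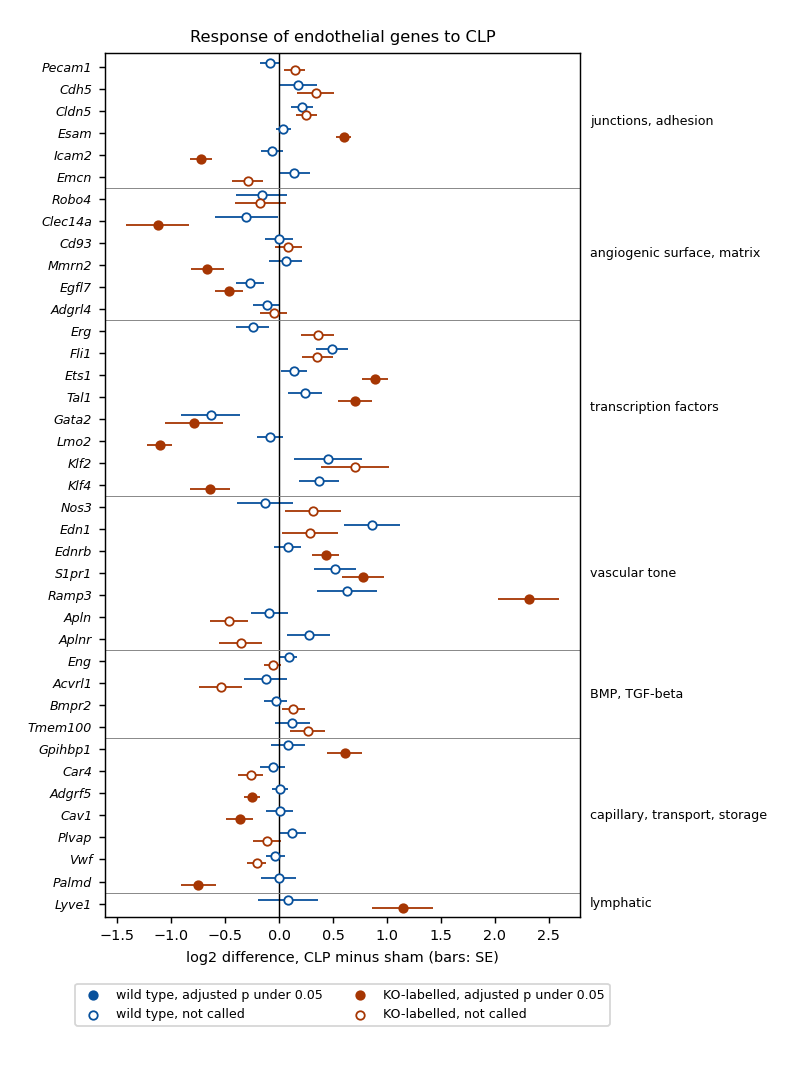
Log2 difference between CLP and sham, with its standard error as a bar, for the 39 tested endothelial genes in wild-type (blue) and knockout-labelled (orange-brown) lung, 3 arrays per group. Filled points had an adjusted p under 0.05 and open points did not. Every wild-type point is open, and in knockout-labelled lung 8 filled points lie to the right of 0 and 10 to the left, with Ramp3 farthest right at 2.31 and Clec14a farthest left at -1.13.

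The 2 genes with the largest rise and the largest fall in knockout-labelled lung were Ramp3, a partner of the calcitonin-like receptor that makes it a receptor for adrenomedullin, and Clec14a, a C-type lectin of the endothelial surface. The 250 bases before each gene's start are shown for a reader to see the control regions of the pair, from RefSeq on GRCm38.p6, which held a window for 21 of the 40 genes. The Ramp3 window is chr11:6658283-6658532 on the plus strand and the Clec14a window chr12:58269259-58269508 on the minus strand, each written 5′ to 3′ along its gene. Capitals mark the motif found in it. The motifs searched, on both strands, were CCGGAAG and CAGGAAG for ETS factors, AGATAA for GATA factors and CACACCC for KLF factors.
Ramp3: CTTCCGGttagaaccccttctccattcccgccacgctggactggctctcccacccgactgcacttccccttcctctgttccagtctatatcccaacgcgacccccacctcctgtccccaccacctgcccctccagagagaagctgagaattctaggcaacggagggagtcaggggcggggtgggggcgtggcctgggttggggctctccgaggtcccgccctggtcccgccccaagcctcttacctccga
Clec14a: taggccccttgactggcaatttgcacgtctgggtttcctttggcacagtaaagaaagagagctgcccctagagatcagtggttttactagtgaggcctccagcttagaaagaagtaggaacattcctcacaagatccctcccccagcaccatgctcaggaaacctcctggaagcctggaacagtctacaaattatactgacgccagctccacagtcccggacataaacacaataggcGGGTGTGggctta

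In the Ramp3 window the reverse complement of CCGGAAG begins at base -250 and ends at -244, counted from the gene's start. In the Clec14a window the reverse complement of CACACCC runs from -13 to -7. Over the 300 bases around each start, CCGGAAG stood in 9.12% of all 27025 windows and in 2 of the 21 (Car4 and Ramp3). CAGGAAG stood in 13% of all windows and in 5 of the 21 (Adgrf5, Apln, Egfl7, Emcn and Robo4). AGATAA was found in 11.4% of all windows and in 2 of the 21 (Edn1 and Tal1), and CACACCC in 7.85% and in 1 (Clec14a). Such matches describe the letters of the windows and do not show binding.

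Among the 6 junction and adhesion genes, Esam rose and Icam2 fell after CLP in knockout-labelled lung, where 29.2% of all probe sets were called. Esam, an adhesion molecule of endothelial tight junctions, read 1565, 1559.6 and 1643 after sham and 2283, 2359 and 2586 after CLP, a log2 difference of 0.60 ± 0.068, adjusted p = 0.00014. In the wild type it read 1951, 1951 and 1946 and then 1970.0, 1994 and 2045 (0.039 ± 0.068, adjusted p = 0.97). So the knockout-labelled arrays were the lowest of all groups after sham and the highest after CLP, and no 2 of the 4 groups overlapped. Icam2, a ligand that resting endothelium offers to leukocyte integrins, read 1687, 1473 and 1578 after sham and 1070.0, 889 and 914 after CLP in knockout-labelled lung (-0.72 ± 0.10, adjusted p = 0.00052). Its wild-type arrays read 1537, 1346 and 1379 after sham and 1458, 1213 and 1405 after CLP (-0.066 ± 0.10, adjusted p = 0.96), and all 3 knockout-labelled CLP arrays lay below every other array.

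Cdh5, Cldn5, Pecam1 and Emcn were not called after CLP in either genotype. Cdh5, VE-cadherin, read 1269.8, 1219 and 976 after sham and 1269.9, 1167 and 2059 after CLP in knockout-labelled lung (0.34 ± 0.17, adjusted p = 0.16), with array 3 of CLP far above the other 2. Cldn5, which seals endothelial tight junctions, read 3164, 3178 and 2521 and then 3082, 3712 and 3752 (0.25 ± 0.099, adjusted p = 0.072). Wild-type Cldn5 read 3469, 3319 and 3155 after sham and 3764, 3807 and 3942 after CLP, without overlap (0.21 ± 0.099, adjusted p = 0.60). Pecam1 differed by 0.14 ± 0.095, adjusted p = 0.27, and Emcn, a sialomucin of venous and capillary surfaces, by -0.29 ± 0.14, adjusted p = 0.14.

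**Figure D3:**
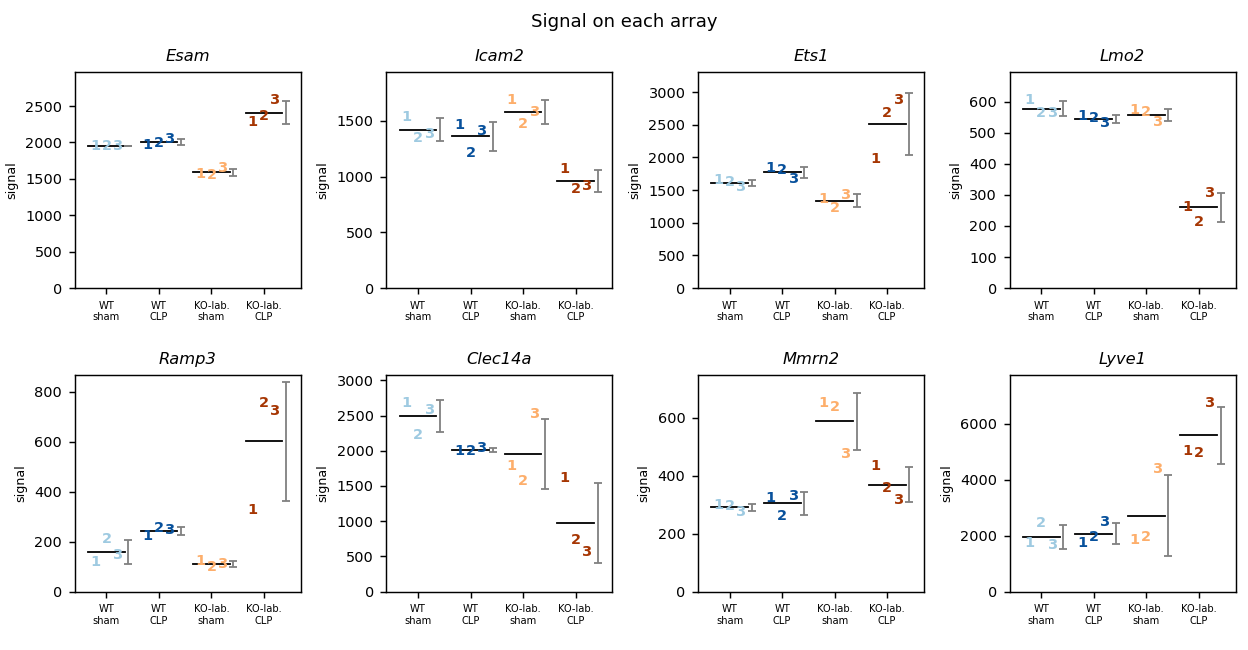
Deposited signal of 8 endothelial genes on each array, on a linear axis that starts at 0. Digits mark arrays 1 to 3 of each group (WT, wild type; KO-lab., knockout-labelled), black lines are group means and grey bars the SD over 3 arrays. Esam, Ets1, Ramp3 and Lyve1 are highest in knockout-labelled CLP, Icam2, Lmo2 and Clec14a are lowest there, and Mmrn2 is highest in knockout-labelled sham.

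Of the 6 genes of the angiogenic surface and its matrix, 3 fell after CLP in knockout-labelled lung and none rose. Of all probe sets, 18.8% fell there and 10.4% rose. Clec14a read 1778, 1569.9 and 2521 after sham and 1617, 737 and 564 after CLP (-1.13 ± 0.29, adjusted p = 0.012), so the arrays of the groups overlapped by a single CLP array. Its wild-type arrays read 2677, 2230.4 and 2573 and then 1995, 2002 and 2037 (-0.31 ± 0.29, adjusted p = 0.89). The call was lost without array 2 of knockout-labelled CLP (then adjusted p = 0.052). A second Clec14a probe set also fell, by 1.44 on the log2 scale (adjusted p = 0.0075).

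Mmrn2, a matrix protein of vessels that Clec14a and Cd93 bind, read 650.3, 638 and 474 after sham and 433, 357 and 314 after CLP (-0.67 ± 0.15, adjusted p = 0.0071). Its sham and CLP arrays did not overlap, and the CLP arrays overlapped those of the wild type, at 322, 259.7 and 330.3 (0.27 ± 0.15, adjusted p = 0.21 between genotypes). All 3 other tested Mmrn2 probe sets fell too, with log2 differences of -0.75, -0.75 and -0.74 (adjusted p = 0.033, 0.012 and 0.0081). Egfl7, a secreted factor of the endothelial matrix, read 1513, 1551 and 1629.8 after sham and 1478, 986 and 998 after CLP (-0.46 ± 0.13, adjusted p = 0.020), and its call was lost without array 2 or 3 of knockout-labelled CLP (then adjusted p = 0.087 and 0.073) and with arrays centred. In the wild type every Egfl7 CLP array also lay below every sham array (-0.27 ± 0.13, adjusted p = 0.63). The difference in response was -0.19 ± 0.19, adjusted p = 0.58. Its other probe sets differed by -0.69, -0.61 and -0.30 in the wild type (adjusted p = 0.19, 0.10 and 0.66). In knockout-labelled lung they differed by -0.71, -0.32 and -0.44 (adjusted p = 0.017, 0.13 and 0.046). Robo4, a guidance receptor that stabilises vessels, differed by -0.17 ± 0.23, adjusted p = 0.61, Cd93 by 0.087 ± 0.13, adjusted p = 0.65, and Adgrl4, an adhesion receptor of sprouting vessels, by -0.049 ± 0.12, adjusted p = 0.80.

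The transcription factors moved in both directions: after CLP in knockout-labelled lung Ets1 and Tal1 rose, Gata2, Lmo2 and Klf4 fell, and Erg, Fli1 and Klf2 were not called. Of all probe sets, 29.2% were called there. Lmo2, the bridging protein that joins Tal1 to GATA factors, read 572, 565 and 535 after sham and 261, 213 and 304 after CLP (-1.11 ± 0.12, adjusted p = 0.00010). Wild-type arrays read 606, 562 and 564 after sham and 554, 547 and 531 after CLP (-0.084 ± 0.12, adjusted p = 0.95), so the 3 knockout-labelled CLP arrays were the lowest of the 12 by a wide gap. Tal1, the helix-loop-helix factor of the same complex, read 144, 171 and 184 and then 228, 259 and 341 (0.70 ± 0.16, adjusted p = 0.0065), without overlap. Gata2 read 676, 808 and 371 after sham and 434, 229 and 389 after CLP (-0.79 ± 0.27, adjusted p = 0.044), with overlap through array 3 of sham. The Gata2 call held in 2 of the 12 runs with 1 array left out, those without array 3 of knockout-labelled sham or array 1 of knockout-labelled CLP. In the others the adjusted p reached up to 0.18, without array 2 of knockout-labelled CLP.

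Ets1, an ETS factor that rises with angiogenic and inflammatory signals, read 1368, 1228 and 1426 after sham and 1976, 2677 and 2882 after CLP (0.89 ± 0.12, adjusted p = 0.00041), while the wild type read 1649, 1619.6 and 1552 and then 1840.5, 1802 and 1668 (0.14 ± 0.12, adjusted p = 0.87). Its lowest knockout-labelled CLP array lay above all 9 others. The related factors had smaller values in that comparison, 0.36 ± 0.15, adjusted p = 0.096 for Erg and 0.36 ± 0.15, adjusted p = 0.088 for Fli1. Klf4, which shear stress induces and which restrains inflammatory genes, read 3594, 3082 and 1829 after sham and 1517, 1967 and 1784 after CLP (-0.64 ± 0.19, adjusted p = 0.023). In the wild type it lay higher on every CLP array, 4006, 4083 and 4299 against 2939.6, 3295 and 3366 (0.37 ± 0.19, adjusted p = 0.66). The knockout-labelled call of Klf4 was lost without array 1 or 2 of knockout-labelled sham (then adjusted p = 0.090 and 0.084) or array 1 of knockout-labelled CLP (then adjusted p = 0.066) and with arrays centred. Klf2, the other shear-induced factor, was not called, with 693, 702 and 1194 after sham and 778, 1495 and 2178 after CLP (0.71 ± 0.31, adjusted p = 0.11) and wide scatter in both groups.

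Of the 7 genes of vascular tone, Ramp3, S1pr1 and Ednrb rose after CLP in knockout-labelled lung and none fell. Of all probe sets, 10.4% rose there and 18.8% fell. Ramp3 read 123, 98.9 and 111 after sham and 325, 754 and 723 after CLP, a log2 difference of 2.31 ± 0.28, adjusted p = 0.00020, the largest among the 39. In the wild type it read 119.9, 211 and 146 and then 222, 253 and 248 (0.63 ± 0.28, adjusted p = 0.56), again with every CLP array above every sham array. S1pr1, the sphingosine-1-phosphate receptor that tightens the barrier, read 521, 508 and 412 and then 813, 926 and 738 in knockout-labelled lung (0.78 ± 0.20, adjusted p = 0.011) and 617, 881 and 441 and then 913, 876 and 882 in the wild type (0.52 ± 0.20, adjusted p = 0.41). The wild-type S1pr1 arrays overlapped through array 2 of each group. Ednrb, the endothelin receptor that clears endothelin and releases nitric oxide, read 815, 886 and 1228 and then 1284, 1307 and 1298 (0.43 ± 0.12, adjusted p = 0.021), without overlap, and its call was lost without array 1 or 2 of knockout-labelled sham (then adjusted p = 0.085 and 0.079) or array 2 of knockout-labelled CLP (then adjusted p = 0.060).

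The other 4 genes of this group were not called. Edn1 in knockout-labelled lung read 535, 651 and 333 after sham and 572, 689 and 535 after CLP (0.28 ± 0.26, adjusted p = 0.44), with overlap. Nos3, the endothelial nitric oxide synthase, read 112, 119 and 92.9 and then 104, 99.8 and 235 (0.32 ± 0.26, adjusted p = 0.38), and array 3 of CLP was the highest of all 12. Apln, which encodes the vasodilator peptide apelin, read 293, 243 and 170.2 and then 183, 149 and 166 (-0.47 ± 0.17, adjusted p = 0.061). Aplnr, its receptor, differed by -0.36 ± 0.20, adjusted p = 0.20.

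No gene of the BMP and TGF-beta receptor arm was called after CLP in either genotype by limma, and 1 of the 4 (Acvrl1) had an unadjusted p under 0.05 in knockout-labelled lung, where 41.5% of all probe sets did, and 0 in the wild type. Acvrl1, the receptor Alk1, read 796, 745 and 905 after sham and 791, 584 and 373 after CLP in knockout-labelled lung (-0.54 ± 0.20, adjusted p = 0.058), with array 1 of CLP among the sham values. A second Acvrl1 probe set was called lower, at -0.58 ± 0.18, adjusted p = 0.030. Tmem100, a small membrane protein that Alk1 signals induce, read 2287, 2004 and 3268 and then 3707, 2642 and 2656 (0.27 ± 0.16, adjusted p = 0.24). Bmpr2, the type II receptor mutated in heritable pulmonary hypertension, read 3724, 4231 and 5295 and then 4669, 4381 and 5358 (0.13 ± 0.11, adjusted p = 0.39), and Eng, the co-receptor endoglin, differed by -0.059 ± 0.081, adjusted p = 0.61. Wild-type log2 differences of the 4 genes ran from -0.12 to 0.12.

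Of the 7 genes of capillaries, transport and storage, Gpihbp1 rose in knockout-labelled lung after CLP and Palmd, Adgrf5 and Cav1 fell. Of all probe sets, 10.4% rose there and 18.8% fell. Gpihbp1, which carries lipoprotein lipase to the capillary surface, read 1455, 1658 and 2522 after sham and 3121, 2672 and 2585 after CLP (0.61 ± 0.16, adjusted p = 0.014). Arrays 1 and 2 of sham were the lowest of the 12, while array 3 was near the wild-type sham arrays, at 2259, 2383 and 2337. No sham array overlapped the CLP arrays, and the call was lost without array 1 or 2 of knockout-labelled sham (then adjusted p = 0.054 and 0.053). Palmd, the palmitoylated protein palmdelphin, read 504, 389 and 385 and then 316, 244 and 203 (-0.75 ± 0.16, adjusted p = 0.0052), without overlap, and the wild type read 402, 369 and 367 and then 417, 330.2 and 393 (-0.0035 ± 0.16, adjusted p = 1.0).

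Adgrf5, an adhesion receptor of lung capillaries and alveolar type 2 cells, read 2951, 3149 and 3326 after sham and 2850.2, 2445 and 2619 after CLP (-0.25 ± 0.072, adjusted p = 0.020). This is a small change, with no overlap, and its call was lost without array 2 of knockout-labelled sham (then adjusted p = 0.052) or array 2 of knockout-labelled CLP (then adjusted p = 0.084) and with arrays centred. Its second probe set differed by 0.018 ± 0.075, adjusted p = 0.88. Cav1, the coat protein of caveolae, read 7301, 8077 and 9115 and then 7966, 5955 and 5283 (-0.37 ± 0.12, adjusted p = 0.040), with array 1 of CLP among the sham values. The Cav1 call held in 2 of the 12 runs with 1 array left out, those without array 1 of either knockout-labelled group. In the others the adjusted p reached up to 0.15, without array 3 of knockout-labelled CLP. Car4, a carbonic anhydrase of the capillary surface, differed by -0.26 ± 0.11, adjusted p = 0.096, Plvap, the protein of fenestral diaphragms, by -0.11 ± 0.13, adjusted p = 0.55, and Vwf, the clotting factor stored in Weibel-Palade bodies, by -0.21 ± 0.090, adjusted p = 0.098. A second Car4 probe set was called lower in knockout-labelled lung, at -0.41 ± 0.094, adjusted p = 0.0067, without overlap. Its call held in all 12 runs with 1 array left out. Wild-type values of the 7 genes lay between -0.060 and 0.12.

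Lyve1, a hyaluronan receptor of lymphatic endothelium that some tissue macrophages also carry, read 1823, 1949.6 and 4373 after sham and 5026, 4966 and 6732 after CLP in knockout-labelled lung (1.14 ± 0.28, adjusted p = 0.0095). Array 3 of sham, the array with the high macrophage markers, lay between the other sham arrays and the CLP arrays. Wild-type Lyve1 read 1751, 2457 and 1657 and then 1742, 1959 and 2469.8 (0.081 ± 0.28, adjusted p = 0.98), with overlap. Mrc1, the macrophage mannose receptor, was high on the same arrays. It read 286, 341 and 891 after sham and 1024, 984 and 1206 after CLP in knockout-labelled lung and 446 to 539 in the wild type. The 8 alveolar macrophage markers summed to 7944 to 8544 in knockout-labelled CLP and to 1547 to 1827 in wild-type sham and 1820.3 to 2014 in wild-type CLP, with Siglec1 below the array median throughout, and their part in the Lyve1 result was not tested. The lymphatic factor Prox1 gave no signal above the array median on any array.

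A test of the difference between the responses asked whether CLP changed the genes otherwise in knockout-labelled than in wild-type lung. Of the 39 genes, 5 were called, 12.8%, against 4.05% of all probe sets (1.69% higher and 2.36% lower). The response was higher in knockout-labelled lung for Esam (0.56 ± 0.096, adjusted p = 0.014), Ets1 (0.75 ± 0.17, adjusted p = 0.033) and Ramp3 (1.68 ± 0.40, adjusted p = 0.036). It was lower for Icam2 (-0.66 ± 0.14, adjusted p = 0.031) and Lmo2 (-1.02 ± 0.17, adjusted p = 0.012). Each of these is the knockout-labelled CLP response minus the wild-type one, on the log2 scale. Klf4, with wild-type CLP arrays above sham and a fall in knockout-labelled lung, came to -1.01 ± 0.27, adjusted p = 0.053, and Lyve1 to 1.06 ± 0.40, adjusted p = 0.14. A second Lyve1 probe set was called, at 1.36 ± 0.26, adjusted p = 0.019.

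Lmo2 kept its call in all 12 runs with 1 array left out. Esam lost it without array 2 of wild-type CLP (then adjusted p = 0.054). Ets1 and Ramp3 held theirs in 2 of the 12 runs, those without array 3 of knockout-labelled sham or array 1 of knockout-labelled CLP, and Icam2 in 3, these and the run without array 3 of knockout-labelled CLP. In the others the adjusted p reached to 0.084 for Icam2 without array 2 of wild-type sham, to 0.089 for Ets1 without array 2 of wild-type CLP and to 0.095 for Ramp3 without the same array. Without array 3 of knockout-labelled sham, the counts were 7 higher (Ednrb, Erg, Gpihbp1 and Lyve1 in addition) and 6 lower (Aplnr, Klf4, Mmrn2 and Palmd in addition). Without array 1 of knockout-labelled CLP they were 3 higher and 6 lower, and without array 3 of that group 1 higher and 2 lower. No share of all probe sets is given for these runs.

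After sham surgery the genotypes were compared directly. Of the 39 genes, Mmrn2 was higher in knockout-labelled lung and Esam and Egfl7 were lower, 7.69% in all, against 8.34% of all probe sets (4.48% higher and 3.86% lower). The median log2 difference of the 39, knockout-labelled minus wild type, was -0.19, and that of all probe sets was 0.0080, with 27 of the 39 below 0. Mmrn2 read 650.3, 638 and 474 against 298, 296 and 276 (1.0 ± 0.15, adjusted p = 0.0014), without overlap, and kept its call in all 12 runs with 1 array left out. Its 3 other probe sets differed by 0.77, 1.18 and 1.17 (adjusted p = 0.067, 0.0019 and 0.0011).

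Esam read 1565, 1559.6 and 1643 against 1951, 1951 and 1946 (-0.29 ± 0.068, adjusted p = 0.018), without overlap, and its call was lost without array 1, 2 or 3 of wild-type sham (then adjusted p = 0.066, 0.063 and 0.064) or array 1 or 2 of knockout-labelled sham (then adjusted p = 0.052 and 0.054). Egfl7 read 1513, 1551 and 1629.8 against 2397, 2045 and 2136 (-0.48 ± 0.13, adjusted p = 0.041), without overlap. Its call held in 4 of the 12 runs, those without array 3 of knockout-labelled sham or array 1, 2 or 3 of knockout-labelled CLP, and the adjusted p reached 0.15 without array 1 of wild-type sham. Several endothelial genes with wider scatter leaned lower without a call. Cdh5 read 1269.8, 1219 and 976 against 1566, 1644 and 1761, without overlap (-0.53 ± 0.17, adjusted p = 0.085), and Robo4 read 128, 161 and 139.5 against 255, 218 and 205, also without overlap (-0.65 ± 0.23, adjusted p = 0.11). Nos3 read 112, 119 and 92.9 against 155, 182 and 139 (-0.54 ± 0.26, adjusted p = 0.24). These 3 genes code for the adherens junction, a guidance receptor and the nitric oxide synthase. Tmem100 read 2287, 2004 and 3268 against 3479.6, 3321 and 2973 (-0.40 ± 0.16, adjusted p = 0.17) and Bmpr2 3724, 4231 and 5295 against 4877, 4957 and 5176 (-0.19 ± 0.11, adjusted p = 0.32). Array 3 of knockout-labelled sham lay among the wild-type values for Tmem100 and above them for Bmpr2. Fli1 read 374, 342 and 469 against 333, 257 and 272 (0.45 ± 0.15, adjusted p = 0.082), Apln 293, 243 and 170.2 against 186, 188 and 156 (0.38 ± 0.17, adjusted p = 0.22) and Vwf 1132, 1342 and 1331 against 1056, 1096 and 1030.2 (0.25 ± 0.090, adjusted p = 0.11), Fli1 and Vwf without overlap. Acvrl1 was 0.24 ± 0.20, adjusted p = 0.53. Also without a call, Gata2 differed by -0.69 ± 0.27, adjusted p = 0.15, Adgrf5 by -0.20 ± 0.072, adjusted p = 0.12 and Lyve1 by 0.37 ± 0.28, adjusted p = 0.47. The Adgrf5 arrays of wild-type sham read 3543, 3682 and 3569.6. Without array 3 of knockout-labelled sham, 2 genes were called higher (Apln and Mmrn2) and 5 lower (Bmpr2, Egfl7, Esam, Gpihbp1 and Tmem100). Without array 3 of knockout-labelled CLP, which shares in the spread, 5 were called lower (Cdh5, Egfl7, Esam, Nos3 and Robo4), and with array 3 of both knockout-labelled groups left out, 2 were called higher and 12 lower. The 8.34% belongs to the fit of all 12 arrays, and no such share is given for these runs.

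**Figure D4:**
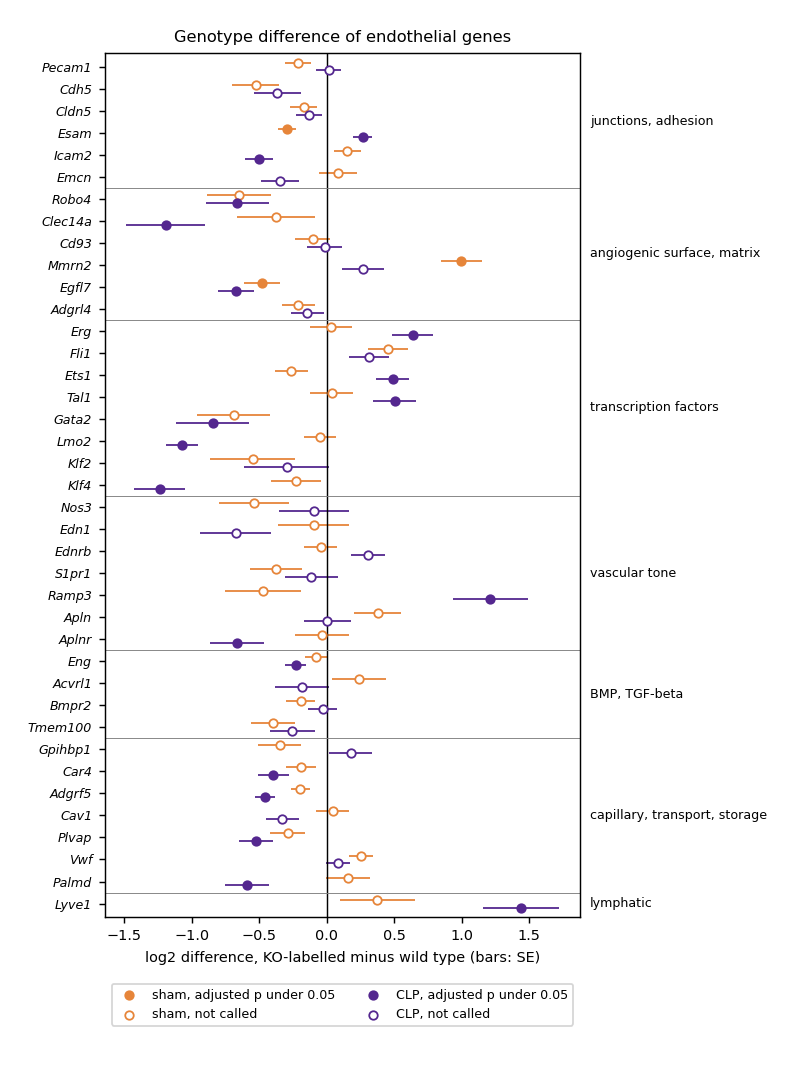
Log2 difference between knockout-labelled and wild-type lung, with its standard error as a bar, for the 39 tested endothelial genes after sham surgery (orange) and after CLP (purple), 3 arrays per group. Filled points had an adjusted p under 0.05. After sham, 3 points are filled (Mmrn2 to the right, Esam and Egfl7 to the left), and after CLP 6 filled points lie to the right of 0 and 13 to the left, with Lyve1 at 1.44 and Klf4 at -1.24 at the ends.

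After CLP, 6 of the 39 genes were higher in knockout-labelled than in wild-type lung and 13 lower, 48.7% in all, against 29.5% of all probe sets (12.6% higher and 16.9% lower). Esam, Erg, Ets1, Tal1, Ramp3 and Lyve1 were higher. Icam2, Robo4, Clec14a, Egfl7, Gata2, Lmo2, Klf4, Aplnr, Eng, Car4, Adgrf5, Plvap and Palmd were lower. The median of the 39 was -0.18, and that of all probe sets was -0.051. For 8 genes the 3 knockout-labelled arrays lay above all 3 wild-type arrays and for 15 below, against 47.1% of all probe sets without overlap in either direction. This comparison shares its knockout-labelled CLP arrays with the comparison of CLP and sham.

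Klf4 had the lowest value, 1517, 1967 and 1784 against 4006, 4083 and 4299 (-1.24 ± 0.19, adjusted p = 0.00058), and Lyve1 the highest, 5026, 4966 and 6732 against 1742, 1959 and 2469.8 (1.44 ± 0.28, adjusted p = 0.0027). Both were without overlap. Further calls were 1.21 ± 0.28 for Ramp3 (adjusted p = 0.0068), 0.64 ± 0.15 for Erg (adjusted p = 0.0085) and -1.20 ± 0.29 for Clec14a (adjusted p = 0.0089). Lmo2 was lower as well (-1.07 ± 0.12, adjusted p = 6.9e-05). Erg, the ETS factor that drives VE-cadherin and claudin-5 transcription, read 403, 438 and 478 against 287, 242 and 320.0, and all 3 knockout-labelled arrays lay above the wild-type ones. Esam (0.26 ± 0.068, adjusted p = 0.012), Ets1 (0.49 ± 0.12, adjusted p = 0.0098) and Tal1 (0.50 ± 0.16, adjusted p = 0.032) were higher too, and Icam2 (-0.50 ± 0.10, adjusted p = 0.0034), Egfl7 (-0.68 ± 0.13, adjusted p = 0.0028) and Gata2 (-0.85 ± 0.27, adjusted p = 0.033) lower. The wild-type CLP arrays of Tal1 read 214, 186 and 175 and those of Egfl7 1821, 1726 and 1892. Eng had a smaller difference, with 1273, 1312 and 1303 against 1393, 1559 and 1624. None of these 7 genes overlapped between genotypes, where 47.1% of all probe sets did not overlap in one direction or the other.

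Of the 7 genes of capillaries, transport and storage, 4 were lower in knockout-labelled lung after CLP and none higher. Of all probe sets, 16.9% were lower in this comparison and 12.6% higher. Car4 read 1476, 1238 and 1120.3 against 1671, 1661 and 1683 (-0.40 ± 0.11, adjusted p = 0.020), Plvap 1669.8, 1556 and 1278 against 2024, 2044 and 2399 (-0.53 ± 0.13, adjusted p = 0.0096), and Adgrf5 2850.2, 2445 and 2619 against 3521, 3763 and 3574 (-0.46 ± 0.072, adjusted p = 0.00068). None of the 3 overlapped between genotypes, where 47.1% of all probe sets did not overlap in one direction or the other. The second Adgrf5 probe set was also lower without overlap but was not called, at -0.10, adjusted p = 0.34. The second Car4 probe set was lower too, at -0.53 ± 0.094, adjusted p = 0.0016, without overlap. Palmd was -0.59 ± 0.16, adjusted p = 0.017, while Cav1 (-0.33 ± 0.12, adjusted p = 0.061), Vwf (0.081 ± 0.090, adjusted p = 0.53) and Gpihbp1 (0.18 ± 0.16, adjusted p = 0.43) were not called. Aplnr, the apelin receptor, read 2533, 1729.8 and 1738 against 2829, 3233 and 3347 (-0.67 ± 0.20, adjusted p = 0.025). Edn1 read 572, 689 and 535 against 985, 951 and 922, without overlap but also without a call (-0.68 ± 0.26, adjusted p = 0.070).

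Of these 19 calls, 12 held in all 12 runs with 1 array left out. Car4 lost its call without array 1, 2 or 3 of wild-type CLP (then adjusted p = 0.055, 0.057 and 0.057) or array 2 or 3 of knockout-labelled CLP (then adjusted p = 0.058 and 0.074). The call of the second Car4 probe set held in all 12 runs. Palmd lost its call without array 1 or 3 of wild-type CLP (then adjusted p = 0.067 and 0.057) or array 3 of knockout-labelled CLP (then adjusted p = 0.062). For Aplnr this was so without array 2 or 3 of wild-type CLP (then adjusted p = 0.079 and 0.082) or array 2 or 3 of knockout-labelled CLP (then adjusted p = 0.090 and 0.086). Tal1 lost its call without array 2 or 3 of wild-type CLP (then adjusted p = 0.094 and 0.11) or array 2 or 3 of knockout-labelled CLP (then adjusted p = 0.056 and 0.12) and Gata2 without array 2 or 3 of wild-type CLP (then adjusted p = 0.12 and 0.074) or array 2 of knockout-labelled CLP (then adjusted p = 0.13). Robo4 (-0.66 ± 0.23, adjusted p = 0.049) held its call in 2 of the 12 runs, those without array 3 of either knockout-labelled group. Eng (-0.23 ± 0.081, adjusted p = 0.046) also held it in 2, those without array 1 of wild-type CLP or array 3 of knockout-labelled sham. Robo4 had its highest adjusted p, 0.16, without array 1 of knockout-labelled CLP, and Eng its highest, 0.17, without array 3 of wild-type CLP, when its log2 difference was -0.19. The second Eng probe set was 0.21 ± 0.15, adjusted p = 0.31. Without array 3 of wild-type CLP, 7 genes were called lower, and without array 2 of knockout-labelled CLP 8. No share of all probe sets is given for these 2 runs.

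A second list of 32 endothelial genes, covering VEGF and angiopoietin receptors, Notch genes and SoxF factors, was set beside these. Of the 30 tested, 1 rose and 13 fell after CLP in knockout-labelled lung (46.7%, against 29.2% of all probe sets), with a median log2 difference of -0.29. Rasip1, which guides the opening of vessel lumens, rose by 1.05 ± 0.19 on the log2 scale (adjusted p = 0.0018). Kdr, the main VEGF receptor, read 1053, 1296 and 805 after sham and 635, 444 and 272 after CLP (-1.27 ± 0.24, adjusted p = 0.0026), without overlap. Nr2f2, the venous identity factor, differed by -1.36 ± 0.13, adjusted p = 6e-05, and Nrp1, a VEGF co-receptor, by -0.87 ± 0.14, adjusted p = 0.0012. Calcrl, the receptor that Ramp3 partners, read 3154, 3115 and 5508 and then 2373, 1212 and 1397 (-1.25 ± 0.23, adjusted p = 0.0024), so receptor and partner moved in opposite directions. Ramp2, another partner of Calcrl, was -0.73 ± 0.25, adjusted p = 0.041. In wild-type lung, where 0.948% of all probe sets were called, 2 of the 30 fell and none rose, Sox7 (-1.12 ± 0.24, adjusted p = 0.045) and Hey1 (-1.42 ± 0.30, adjusted p = 0.050). The response differed between genotypes for 4 of the 30, against 4.05% of all probe sets. These were Rasip1 (1.07 ± 0.26, adjusted p = 0.043), Nr2f2 (-1.33 ± 0.18, adjusted p = 0.0072), Nrp1 (-1.05 ± 0.20, adjusted p = 0.022) and Efnb2 (-0.65 ± 0.16, adjusted p = 0.046), and Calcrl came to -1.15 ± 0.33, adjusted p = 0.069. The fall of Kdr, Nr2f2, Nrp1 and Calcrl, the rise of Rasip1 and the Nr2f2 difference held in all 12 runs with 1 array left out. Those of Ramp2, Sox7 and Hey1 held in 3, 4 and 3 of them (the adjusted p reached 0.15 when array 2 of knockout-labelled CLP was left out, and 0.23 and 0.25 when array 1 of wild-type CLP was), and the differences in response of Rasip1, Nrp1 and Efnb2 in 2, 6 and 2 (up to 0.11, 0.070 and 0.12 without array 2 of wild-type CLP).

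Genes that inflamed endothelium switches on made up a further list. Of 10 tested from its 12, 7 rose and 1 fell after CLP in knockout-labelled lung, against 29.2% of all probe sets called, and 1 rose in the wild type, against 0.948%. Selp, the selectin released from Weibel-Palade bodies, read 77.6, 73.9 and 74.5 after sham and 177, 1131 and 1003 after CLP in knockout-labelled lung (2.91 ± 0.50, adjusted p = 0.0014), and 53.7, 47.2 and 56.0 and then 63.4, 56.6 and 51.7 in the wild type (0.12 ± 0.50, adjusted p = 0.99). Ackr1, the chemokine receptor of venules, rose by 3.34 ± 0.37 (adjusted p = 0.00013) and Plat, the tissue plasminogen activator, by 2.32 ± 0.26 (adjusted p = 0.00014), while their wild-type values were -0.032 ± 0.37, adjusted p = 0.99 and 0.10 ± 0.26, adjusted p = 0.98. The response differed between genotypes for 3 of the 10 (4.05% of all probe sets), Selp (2.78 ± 0.70, adjusted p = 0.046), Ackr1 (3.37 ± 0.53, adjusted p = 0.011) and Plat (2.22 ± 0.37, adjusted p = 0.013). Angpt2, an antagonist of the Tie2 receptor, fell (-0.71 ± 0.15, adjusted p = 0.0052). Without array 2 of wild-type CLP the adjusted p of the difference in response was 0.12 for Selp, whose call held in 2 of 12 runs, 0.051 for Plat and 0.041 for Ackr1. Several of these genes, among them Cxcl1, Csf3 and Lcn2, are also made by other lung cells.

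Markers of several other cells also differed between the groups, not all in the same ones. The 9 neutrophil markers summed to 8682 to 15088 in wild-type sham, 33743 to 37009 in wild-type CLP and 33946 to 37698 in knockout-labelled CLP, and to 10322, 14651 and 27055 in knockout-labelled sham. Cardiac muscle markers, which mark the sleeves of pulmonary veins, summed to 10312 to 16112 in knockout-labelled sham, 4506 to 8215 in knockout-labelled CLP and 3589 to 4458 in the wild type. Mesothelial markers were 2379, 2918 and 1374 in knockout-labelled sham, 878 to 1609.5 in knockout-labelled CLP and 2096 to 2493 in the wild type, and ciliated cell markers were 1427, 1458 and 764 in knockout-labelled sham and 606 to 776 elsewhere. The 40 endothelial genes summed to 64037 to 67020.0, 66245 to 70193, 56942 to 64351 and 59144 to 64131 in wild-type sham, wild-type CLP, knockout-labelled sham and knockout-labelled CLP. The second endothelial list summed to 42619 to 44324, 41349 to 43725, 34619 to 46487 and 27004 to 35413 in the same order, and alveolar type 2 markers lay between 37378 and 45794 over all 12 arrays. The part of the other cells in the endothelial results was not tested.

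**Figure D5:**
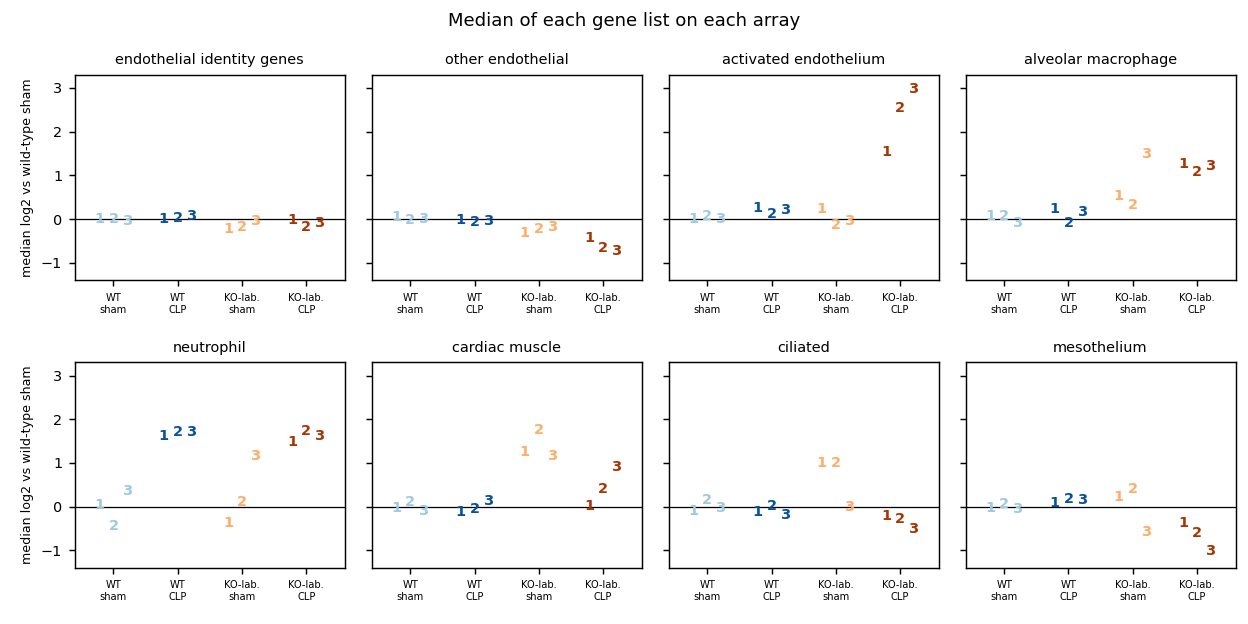
Median log2 difference from the mean of wild-type sham over the genes of 8 lists, on each array; digits mark arrays 1 to 3 of each group (WT, wild type; KO-lab., knockout-labelled). The endothelial identity genes stay between -0.23 and 0.069 on every array, the activated endothelium list reaches 1.53 to 2.98 in knockout-labelled CLP, and array 3 of knockout-labelled sham is apart from arrays 1 and 2 for the alveolar macrophage, neutrophil, ciliated and mesothelium lists.

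Other probe sets of the same genes were compared with the ones used. For 19 genes, 29 further probe sets were tested. In the response to CLP in knockout-labelled lung, 16 of them belonged to genes with a call, 15 had the same sign as that call, 10 were called in the same direction and 0 in the opposite one. For the genotype difference after CLP the counts were 14, 13, 7 and 0, after sham 6, 6, 3 and 0, and for the difference in response 3, 3, 1 and 0. The probe set with the other sign in the CLP response was that of Adgrf5 (0.018). Cd93, which binds the Mmrn2 matrix protein, was not called by its representative probe set, but one of its others, singled out after its values were seen, was higher in knockout-labelled lung after CLP (0.97 ± 0.20, adjusted p = 0.0037). That probe set was dim, at 53.3 to 153. The remaining tested Cd93 probe sets were not called (0.18 ± 0.15, adjusted p = 0.41, and 0.31 ± 0.21, adjusted p = 0.30). Acvrl1 (-0.86 ± 0.18, adjusted p = 0.0042), Fli1 (0.48 ± 0.16, adjusted p = 0.036) and Mmrn2 (0.53 ± 0.17, adjusted p = 0.037) likewise had another probe set called in this comparison but not their representative.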

How the data were processed

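Total RNA from mouse lung was labelled and hybridised to Affymetrix mouse arrays, 3 per group in 4 groups. The deposited intensity values are on a linear scale, 1 per probe set and array, and per the submitters' processing notes GCOS, MAS5 and Affymetrix Expression Console were used. Versions are not given in the sources used here. After the highest and lowest 2% of values were left out, the mean of each array was 150.0, so the arrays had been scaled to a common mean. Precision is limited by the number of arrays.

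Of 45101 probe sets, 64 controls were left out. Of the other 45037, 34945 had 1 gene symbol in the platform annotation, 932 several and 9160 none, and for 34943 of the former the symbol matched a RefSeq name. Signals were taken as log2(signal + 3.4669), the pseudocount being 10% of the median of the array medians (31.1 to 38.4), so folds of dim genes are understated. Probe sets were kept where at least 3 of 12 arrays lay above their own median, and the 24574 left were fitted with limma 3.58.1 in R 4.3.3, with 4 group means, empirical Bayes moderation with an intensity trend and Benjamini-Hochberg adjustment over all of them, and called at an adjusted p under 0.05. Each gene was represented by its probe set of highest mean log2 signal. Differences are log2 ± SE. The fit was tested on simulated data.

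The 40 genes, the 13 other gene lists and the tests were chosen with earlier results of these data known. Array values, difference, SE and adjusted p are given for genes called for CLP in the wild type or for the difference in response, and within each role for the 3 genes of smallest p for CLP in knockout-labelled lung and the 2 for the genotypes after sham. Alternatives were another normalization, pseudocount, filter, moderation, weights, block, probe set rule and each array left out. Leaving out array 3 of both knockout-labelled groups was added after the spread between arrays had been seen.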

Additional observations from a re-analysis of the deposited data

Results flagged for a closer look

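The response to CLP differed between the genotypes for 5 of the 39 tested endothelial genes, by limma's test of the difference between the responses. That is 12.8%, against 4.05% of all probe sets, with 3 arrays per group. Esam, the junctional adhesion molecule, had a log2 difference in response of 0.56, knockout-labelled minus wild type. Ets1, the ETS transcription factor, had 0.75. Ramp3, a partner of the calcitonin-like receptor, had 1.68. Icam2, the integrin ligand, had -0.66. Lmo2, the bridging factor of the Tal1 complex, had -1.02, and of the 5 it was the one whose call held with each of the 12 arrays left out in turn. The call of Esam held in 11 of these 12 runs, that of Icam2 in 3, and those of Ets1 and Ramp3 in 2 each.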

How the results depend on the processing

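Counts of endothelial genes called by limma differed between the alternatives, some of which changed the estimates as well as the spread between arrays. The counts reported, higher and then lower, were 0 and 0 for CLP in the wild type, 8 and 10 for CLP in knockout-labelled lung, 1 and 2 for the genotypes after sham, 6 and 13 after CLP, and 3 and 2 for the difference in response. With array weights they were 3 and 1, 13 higher, 2 and 13, and 7 and 10, in that order without the genotypes after CLP. With only the 2 groups compared, CLP in the wild type gave 5 and 3 and in knockout-labelled lung 4 and 2. Without array 3 of both knockout-labelled groups, CLP in the wild type gave 1 higher, the genotypes after sham 2 and 12, and the difference in response 7 and 6. Arrays centred on their medians left 5 lower for CLP in knockout-labelled lung. For the genotypes after sham, quantile normalization left 1 lower, no filter 1 and no intensity trend 0. For the difference in response, no filter left 1 higher, and no intensity trend 1 higher and 1 lower. The cause of these changes was not tested. Shares of all probe sets called are given for the counts reported and not for the alternatives.

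With each array left out in turn, CLP in the wild type gave 0 to 0 in both directions and in knockout-labelled lung 6 to 13 higher and 5 to 12 lower. The genotypes after sham gave 1 to 2 higher and 0 to 5 lower, and after CLP 5 to 7 higher and 7 to 15 lower. The difference in response gave 0 to 7 higher and 1 to 6 lower. No named gene changed direction under any alternative run while called. Of 45 calls, 24 held with each array left out, 22 under every other alternative and 18 under all of them.

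Replicate numbers did not pair the samples: over 18 pairs of equal number the correlation of deviations ran from -0.10 to 0.12, and 2 were over 0.1. With the replicate number as a block the counts were 0 and 0, 9 and 8, 1 and 2, 6 and 12, and 3 and 3, in the order given above. Probe sets below the array median, such as that of Prox1, were too dim to be tested, and 3 arrays per group limit all of these comparisons.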

Other observations

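The cells around the endothelium were read from marker lists of their own, beside the 29.2% of all probe sets called after CLP in knockout-labelled lung (10.4% higher and 18.8% lower). Of 13 pericyte and fibroblast genes, 1 rose and 6 fell there, with a median log2 difference of -0.29, and 0 were called by limma in the wild type, where 0 also had an unadjusted p under 0.05. Of 7 smooth muscle genes tested, 5 fell in knockout-labelled lung, with a median of -0.60. Of 8 alveolar type 1 genes, 1 fell (Rtkn2), and of 7 alveolar type 2 genes, 1 fell, with medians of -0.19 and 0.027, so both counts lay below the share of all probe sets. Between genotypes after CLP, where 16.9% of all probe sets were lower, 6 of the 13 pericyte and fibroblast genes, 2 of the 7 smooth muscle genes, 2 of the 8 alveolar type 1 genes and 3 of the 7 alveolar type 2 genes were called lower.

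Platelets store Vwf and Selp as endothelium does. Of 7 platelet genes tested, 1 rose (Pf4) and 1 fell (Nbeal2) after CLP in knockout-labelled lung, which is near the share of all probe sets. Between genotypes, Ppbp and Gp1bb were called higher in knockout-labelled lung after sham, where 4.48% of all probe sets were higher. Both were also called higher after CLP, where 12.6% of all probe sets were. Nbeal2 was called lower after CLP, where 16.9% of all probe sets were lower. In each of these 2 comparisons 3 of the 7 platelet genes lay below 0. Of 7 lymphocyte genes tested, 1 rose and 1 fell after CLP in knockout-labelled lung, also near the 29.2% of all probe sets called. In the wild type 1 rose, where 0.814% of all probe sets did.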
